A study of Sus scrofa with 20 samples.

Results

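NUDT7 and 9 other genes of coenzyme A turnover were examined in pig longissimus muscle. Members were all probe sets of the array whose single gene symbol in the platform annotation was NUDT7, NUDT12, NUDT19, PANK1, PANK2, PANK3, PANK4, COASY, PPCS or ACOT8. Of the 10 genes, 9 were measured, out of 13609 named genes in all. They carried 20 of the 45922 probe sets tested, and no probe set was named NUDT12. The Porcine Snowball array from Affymetrix was used, and 10 adult Duroc and 10 adult PiNN pigs gave an array each. PiNN are Pietrain that are homozygous negative for malignant hyperthermia syndrome, the stress disorder caused by a variant of the calcium release channel gene RYR1, and Duroc is the fatter and Pietrain the leaner breed. Both came from commercial lines fattened at the same station. The labels do not give the sex of these animals. They place the sampling 24 h before slaughter, whereas the methods describe collection after it. Values are signals on the log2 scale, and differences are given as Duroc minus PiNN, so a negative difference means a higher signal in PiNN.

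Coenzyme A carries acyl groups in fatty acid synthesis and oxidation, in the citric acid cycle and in haem synthesis, which starts from succinyl-CoA. Cells make it from the vitamin pantothenate. Pantothenate kinases (PANK1, PANK2 and PANK3) set the rate of that pathway, PPCS acts at the next step, and COASY carries out the last steps. NUDT7 and NUDT19 are nudix hydrolases that cleave coenzyme A and its acyl esters in peroxisomes, as shown in mouse, NUDT12 cleaves NADH, and ACOT8 is a peroxisomal thioesterase that frees coenzyme A from acyl-CoA. PANK4 resembles the kinases but is not an active pantothenate kinase in mammals and has a phosphatase domain.

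The gene NUDT7 lies on chromosome 6 at chr6:10161959-10174006 in the RefSeq annotation of Sscrofa11.1, and NUDT19, PANK4 and PPCS lie on the same chromosome. The study designed primers against NUDT7, and the amplification primers are shown because they mark the transcript and the CpG window that it examined beside the arrays. The sequencing primer of the pyrosequencing assay is not shown. The sequences of the array probes were not used here. The quantitative PCR primers were designed on a transcript that RefSeq assigns to NUDT7. The pyrosequencing primers amplify bisulfite-treated DNA from a window inside the gene, chr6:10168109-10168509 on the minus strand. All are written 5′ to 3′.
NUDT7 quantitative PCR forward: gtccccgtgtctatcaccag
NUDT7 quantitative PCR reverse: tgccgttattcccctgatac
NUDT7 pyrosequencing forward: ggaatgtaggaatggtttttggtattaga
NUDT7 pyrosequencing reverse: tcatccttatctataaattccctcttacc

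The arrays were comparable in level. Their medians ran from 4.61 to 4.73 and the mean of the 69 background probe sets from 3.78 to 4.21, highest on the array of PiNN animal 49. Skeletal muscle markers were bright, since 11 of 12 listed genes were measured and the means of their brightest probe sets ran from 10.5 to 13.9. Of their 31 probe sets 30 lay above background, and none differed between the breeds at an adjusted p under 0.05. Of the 20 member probe sets, 18 had a mean above the background mean of 3.93. The exceptions were 1 probe set of PANK1 and 1 of PANK3, which lay below their own array's background on all 20 arrays.

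NUDT7 signals were higher in PiNN at both of its probe sets. At SNOWBALL_007907_st the lowest, median and highest signals were 5.76, 6.50 and 6.65 in Duroc and 6.52, 6.73 and 7.09 in PiNN. Every one of the 10 Duroc signals was under the PiNN median, 8 of the 10 PiNN animals lay above the highest Duroc animal, and the ranges overlapped. The means were 6.42 ± 0.25 (SD, n = 10) and 6.80 ± 0.21 (SD, n = 10). Their difference was -0.39 (standard error 0.11, 95% confidence interval -0.60 to -0.17, adjusted p = 0.0386 from limma), which is 1.31-fold. At SNOWBALL_007910_st the lowest, median and highest signals were 5.40, 6.18 and 6.56 in Duroc and 5.56, 6.83 and 7.32 in PiNN. Again the 10 Duroc signals were all under the PiNN median, and 9 of the 10 PiNN animals lay above every Duroc animal. The remaining PiNN animal, number 49, had the lowest signal of its breed, 5.56 against 6.57 for the next. The means were 6.12 ± 0.37 (SD, n = 10) and 6.77 ± 0.51 (SD, n = 10), and the difference was -0.66 (standard error 0.18, 95% confidence interval -1.04 to -0.28, adjusted p = 0.0409 from limma), which is 1.58-fold. Over all tested probe sets 4.17% passed the same test, in either direction, 1.41% with a higher signal in PiNN and 2.76% with a higher signal in Duroc. Of the 20 member probe sets 2 passed, or 10%, both of them of NUDT7. Of the probe sets with a mean above background 6.08% passed, and of the members above background 2 of 18. The members were grouped around NUDT7 with its difference in these data already known, so neither share is a result about the group. The breeds did not overlap at 0.122% of all probe sets and at 0 of the 20 members.

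**Figure D1:**
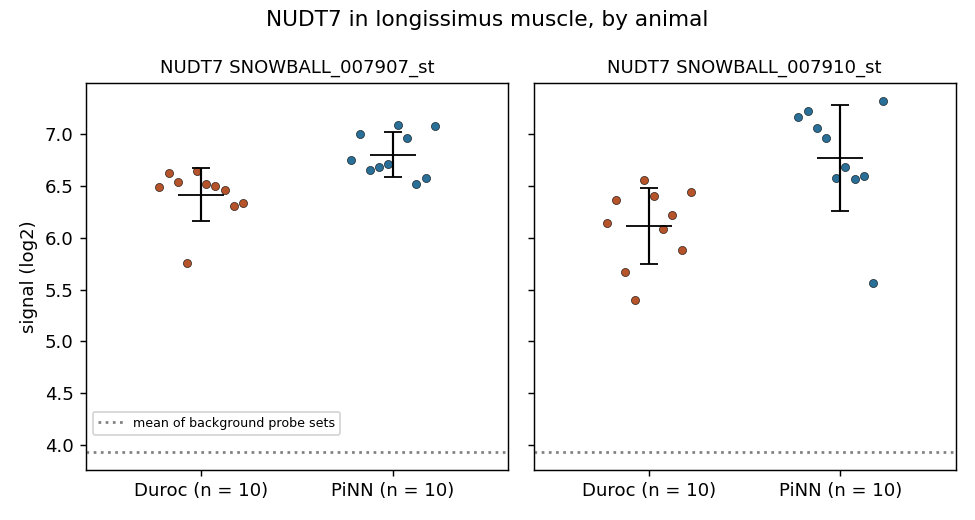
Signal (log2) of the NUDT7 probe sets in 10 Duroc and 10 PiNN animals, 1 point per animal, with the mean and SD as a bar and whiskers and the mean of the background probe sets as a dotted line. At SNOWBALL_007910_st every Duroc animal lies below 9 of the 10 PiNN animals, and PiNN animal 49 lies at 5.56.

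With the mean of both probe sets as 1 value for the gene, Duroc averaged 6.27 ± 0.29 (SD, n = 10) and PiNN averaged 6.79 ± 0.32 (SD, n = 10). The breeds differed by -0.52 (standard error 0.13, 95% confidence interval -0.79 to -0.26, adjusted p = 0.0143 from limma over 13609 genes). With each of the 20 animals left out in turn, its adjusted p stayed under 0.05 in all 20 fits, from 0.00281 without PiNN animal 49 to 0.0294 without PiNN animal 36, and the difference ran from -0.60 to -0.45. Single probe sets were adjusted over 45922 probe sets, of which 4.17% passed with all animals, against 8.02% of the 13609 genes. Lost calls of the probe sets and of the mean therefore cannot be compared directly. For the single probe sets the adjusted p rose above 0.05 in 12 and 13 of the 20 fits. At SNOWBALL_007907_st it did so without Duroc animal 42, 43, 46, 58 or 59 or PiNN animal 19, 20, 22, 35, 36, 41 or 62. At SNOWBALL_007910_st it did so without Duroc animal 24, 31, 32, 43, 46 or 58 or PiNN animal 19, 20, 21, 22, 35, 36 or 62. The difference was negative in each of the 20 fits, from -0.42 to -0.31 for the former and from -0.79 to -0.58 for the latter. A lost call did not always go with a smaller difference. At SNOWBALL_007907_st it was -0.40 without Duroc animal 42 (adjusted p = 0.0532 from limma) and -0.31 without Duroc animal 32 (adjusted p = 0.0430). The adjusted p also depends on all other probe sets, of which 1174 to 2489 passed in these fits. Without PiNN animal 49 the difference at SNOWBALL_007910_st was -0.79 and its adjusted p 0.00468.

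**Figure D2:**
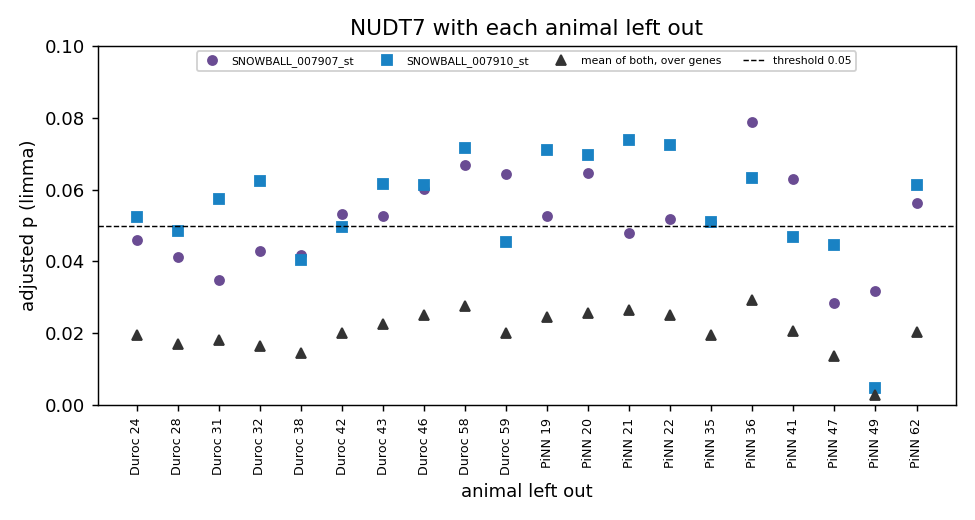
Adjusted p from limma (vertical axis) for each NUDT7 probe set, over all probe sets, and for the mean of both, over all genes, with the animal named on the horizontal axis left out. The mean stays under the dashed threshold of 0.05 in all 20 fits, while the probe sets lie on both sides of it.

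The probe sets of NUDT7 did not rank the animals of a breed alike with any firmness. Within Duroc their Pearson correlation was 0.71 (permutation p = 0.0230, adjusted p = 0.368 over the 32 correlations computed for the member probe sets), and Spearman's rho was 0.48 (permutation p = 0.166, adjusted p = 0.879). Without the 2 Duroc animals farthest from the median of SNOWBALL_007907_st, r was 0.057, so the relation rested on them. Duroc animal 32 was lowest at both probe sets, at 5.76 and 5.40. Within PiNN r was 0.44 (permutation p = 0.199, adjusted p = 0.699), rho was 0.45 (permutation p = 0.192, adjusted p = 0.879), and r was 0.43 without the 2 farthest animals. For the other genes with several probe sets the adjusted p of r was at least 0.0842, the smallest belonging to PANK3 in PiNN, where r was 0.83.

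**Figure D3:**
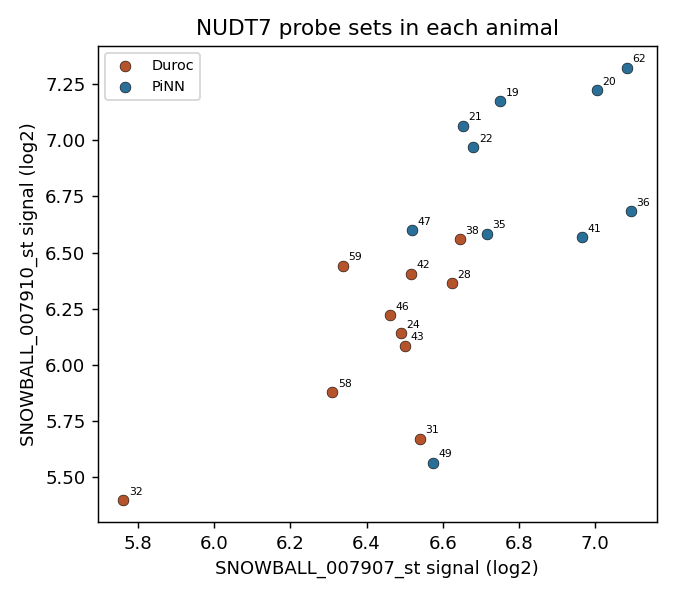
Signal (log2) of the NUDT7 probe set SNOWBALL_007910_st against SNOWBALL_007907_st, 1 point per animal with its number, by breed. Duroc animal 32 lies lowest on both axes, and PiNN animal 49 lies among the lower Duroc animals on the vertical axis.

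By their animal numbers, 4 Duroc and 3 PiNN animals on the arrays also had a library of reduced-representation bisulfite sequencing (RRBS), which measures DNA methylation. The methods count 1 more Duroc animal with a library among those on the arrays, but the number of that library matched no array label. Among them the breeds differed by -0.19 (standard error 0.16) at SNOWBALL_007907_st and by -0.011 (standard error 0.27) at SNOWBALL_007910_st. Among the other 6 Duroc and 7 PiNN animals the differences were -0.49 (standard error 0.14, adjusted p = 0.0920 from limma) and -0.96 (standard error 0.17, adjusted p = 0.0200 from limma). PiNN animal 49, whose array had the highest background, was 1 of the 3 PiNN animals in the former set. The change of the breed difference between these sets had an unadjusted p of 0.207 at SNOWBALL_007907_st and 0.00852 at SNOWBALL_007910_st, with adjusted p of 0.638 and 0.245 over all probe sets (interaction term in limma). A change of the difference was therefore not established for either probe set. With array background added to the model for all 20 animals, NUDT7 differed by -0.42 (adjusted p = 0.0269 from limma) and -0.86 (adjusted p = 0.000884).

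Other enzymes that release or break down coenzyme A did not pass the test. NUDT19 signals ran from 4.40 to 5.53 in Duroc (median 5.27) and from 4.73 to 5.61 in PiNN (median 5.41). The breeds overlapped, 3 PiNN animals lay above the Duroc range, and the difference was -0.15 (95% confidence interval -0.41 to 0.11, adjusted p = 0.624 from limma). ACOT8 signals ran from 4.93 to 5.41 in Duroc (median 5.11) and from 4.94 to 5.73 in PiNN (median 5.31). The difference was -0.14 (95% confidence interval -0.36 to 0.082, adjusted p = 0.572), and 3 PiNN animals lay above the Duroc range.

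The pantothenate kinases, which open the pathway, had no probe set past the threshold. PANK3 had higher means in Duroc at all 3 of its probe sets, by 0.22 (SNOWBALL_018759_st, adjusted p = 0.490 from limma), 0.21 (SNOWBALL_027198_st, adjusted p = 0.557) and 0.19 (SNOWBALL_044986_st, adjusted p = 0.447), the last of them below background. At SNOWBALL_018759_st the signals ran from 6.98 to 7.59 in Duroc (median 7.25) and from 6.27 to 7.68 in PiNN (median 7.11). The PiNN animals were thus more spread, with an SD of 0.45 against 0.20, and 4 of them lay below every Duroc animal. PANK4, by contrast, had higher means in PiNN at all 3 probe sets, by -0.19 (SNOWBALL_022445_st, adjusted p = 0.352), -0.036 (SNOWBALL_037615_st, adjusted p = 0.908) and -0.13 (SNOWBALL_037616_st, adjusted p = 0.379). At SNOWBALL_022445_st 9 of the 10 Duroc animals lay below the PiNN median of 6.99, and the highest Duroc animal reached 7.16.

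PANK1 did not give 1 answer across its probe sets. At SNOWBALL_016907_st the signals ran from 4.91 to 5.98 in Duroc (median 5.58) and from 4.86 to 5.71 in PiNN (median 5.18), a difference of 0.30 (95% confidence interval 0.013 to 0.59, unadjusted p = 0.0412, adjusted p = 0.262 from limma). At SNOWBALL_024606_st the difference was -0.068 (95% confidence interval -0.29 to 0.15), and at SNOWBALL_028840_st, which lay below background with a mean of 2.85, it was 0.015. The PANK1 probe sets above background therefore had differences of opposite sign. The mitochondrial kinase PANK2 had the closest means of the kinases, with differences of -0.029, 0.0022 and -0.041 and confidence intervals that stayed within -0.29 and 0.21.

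The later enzymes of synthesis differed little at most probe sets. COASY signals ran from 4.92 to 5.57 in Duroc (median 5.39) and from 5.09 to 5.70 in PiNN (median 5.46), a difference of -0.093 (95% confidence interval -0.29 to 0.099, adjusted p = 0.688 from limma). For PPCS, which joins cysteine to phosphopantothenate, SNOWBALL_008774_st and SNOWBALL_019683_st differed by -0.035 and -0.055, with adjusted p of 0.894 and 0.816. The third, SNOWBALL_040444_st, had signals from 4.11 to 5.11 in Duroc (median 4.64) and from 3.78 to 4.62 in PiNN (median 4.32). There 9 of the 10 Duroc signals exceeded the PiNN median and 5 exceeded every PiNN signal. The difference was 0.36 (standard error 0.13, 95% confidence interval 0.091 to 0.63, unadjusted p = 0.0109), and it did not pass over all probe sets (adjusted p = 0.128 from limma). This probe set was close to background and rose above its own array's background on 17 of the 20 arrays, and the other PPCS probe sets had higher means in PiNN.

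**Figure D4:**
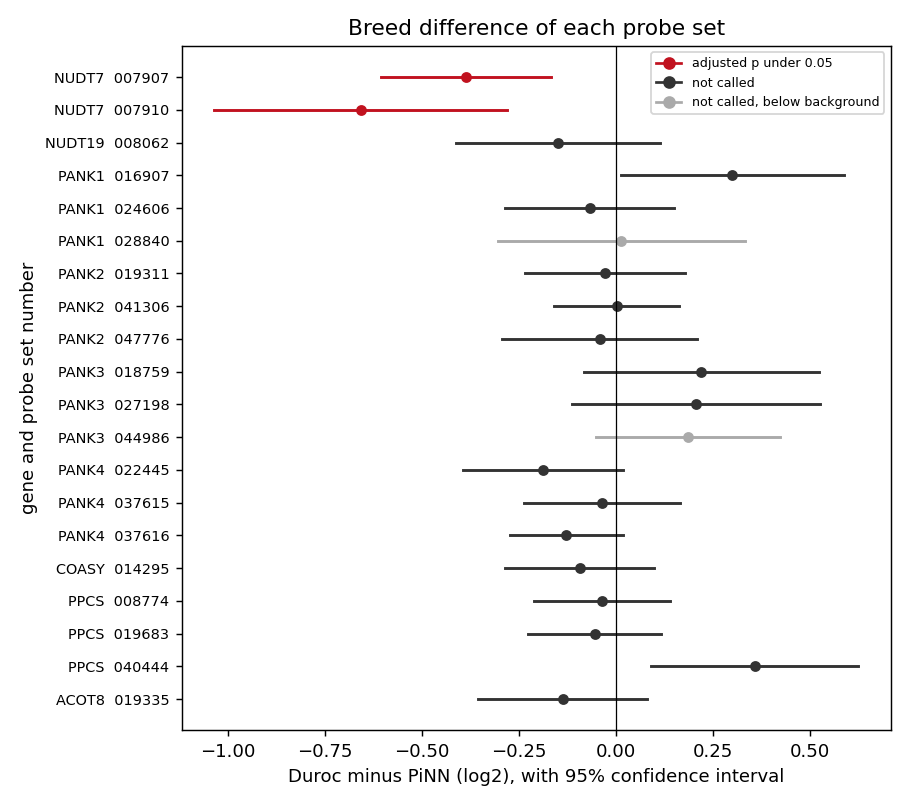
Duroc minus PiNN difference (log2) of each of the 20 member probe sets with its 95% confidence interval, labelled by gene and probe set number. Both NUDT7 probe sets (red) lie to the left of 0, and the intervals of 1 PANK1 and 1 PPCS probe set lie to the right of it without passing the adjusted threshold.

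Taking all 20 probe sets, 13 had higher means in PiNN and 7 in Duroc, with a median difference of -0.039, against -0.019 over all tested probe sets. The median size of the difference was 0.13, against 0.11 over all tested probe sets. An unadjusted p under 0.05 was found for 4 of the 20, against 17.3% of all tested probe sets. With 1 value per gene, 1 of the 9 measured genes passed, NUDT7, whose difference was known beforehand, against 1092 of all 13609 genes, or 8.02%. The next of the 9 were PANK4 (-0.12, adjusted p = 0.252) and PANK3 (0.20, adjusted p = 0.270).

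Among the other genes of coenzyme A supply and breakdown, AASDHPPT was higher in Duroc. This enzyme transfers the phosphopantetheine arm of coenzyme A onto acyl carrier proteins. It differed by 0.35 (standard error 0.10, adjusted p = 0.0484 from limma), and leaving out single animals took its adjusted p above 0.05 in 16 of 20 fits, up to 0.0980 without PiNN animal 36. Of those fits it stayed under 0.05 without Duroc animal 31 or 32 or PiNN animal 41 or 47. The call was also lost with an ANOVA (Benjamini-Hochberg adjusted p = 0.0574) and with quantile normalization (0.0522). Median centring (0.0867) and array background in the model (0.0890) lost it too. Of the 17 probe sets for 9 measured genes of this list, 1 passed, or 5.88%, against 4.17% of all tested probe sets. The median difference of the list was 0.0084. None of the 7 probe sets for 6 acyl-CoA thioesterases passed by limma, and none had an unadjusted p under 0.05. ACOT11 (0.18) and ACOT6 (0.077) had the largest differences among their probe sets above background.

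Among the genes listed as peroxisomal, PEX19 and CRAT passed and differed in the same direction as NUDT7. PEX19, the carrier that brings membrane proteins to peroxisomes, was higher in PiNN at 3 of its 4 probe sets. The differences were -0.75 (SNOWBALL_000849_st, standard error 0.11, adjusted p = 0.00113 from limma), -0.65 (SNOWBALL_000847_st, adjusted p = 0.000813) and -0.52 (SNOWBALL_000848_s_st, adjusted p = 0.00456). The fourth differed by -0.17 (adjusted p = 0.437). These 3 calls held in all 20 fits without a single animal, with adjusted p of at most 0.0107. CRAT, which moves acetyl groups between coenzyme A and carnitine, differed by -0.61 (standard error 0.14, adjusted p = 0.0172), and its adjusted p was at most 0.0380 in those fits. In the RRBS animals alone CRAT differed by -0.060 (adjusted p = 0.932 from limma). PiNN animal 49 was 1 of only 3 PiNN animals there. Without that animal in the main fit CRAT differed by -0.73 (standard error 0.11). PEX19 differed there by -0.51, -0.57 and -0.36 in the order above, with adjusted p of 0.345, 0.144 and 0.448. Of the 60 probe sets for 30 measured genes of this list, 4 passed, or 6.67%, all of them higher in PiNN. Over all tested probe sets 4.17% passed, and over those above background 6.08%. The 4 calls came from PEX19 and CRAT alone, so the share is not a result about the list. When only probe sets above background were tested 6 of 51 passed, against 2284 of 28623 in all. Without single animals 4 to 6 passed. The median difference was -0.075, and 25 had higher means in Duroc and 35 in PiNN. An unadjusted p under 0.05 was found for 16 of the 60, against 17.3% of all tested probe sets. Those 16 lay in both directions. PHYH at SNOWBALL_025988_st (0.67, adjusted p = 0.0611 from limma) and CROT at SNOWBALL_012647_st (0.36, adjusted p = 0.0599) were higher in Duroc. Other PHYH probe sets went either way.

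Among the other nudix hydrolases the genes that passed went the opposite way to NUDT7. NUDT4, which cleaves diphosphoinositol phosphates, was higher in Duroc at both probe sets, by 0.60 (adjusted p = 0.00759 from limma) and 0.52 (adjusted p = 0.00468), and both calls held in all 20 fits without a single animal. NUDT6 was higher in Duroc by 0.56 at SNOWBALL_011633_st (adjusted p = 0.0415), a call lost in 11 of the 20 fits, with an adjusted p of up to 0.0780. It was also lost with an ANOVA (Benjamini-Hochberg adjusted p = 0.0745) and with median centring (0.0654). Array background in the model lost it too (difference 0.40, adjusted p = 0.0584 from limma). NUDT6 differed by 1.03 in the RRBS animals and by 0.32 in the others, without passing in either set. Without PiNN animal 49, which had an RRBS library, it differed by 0.43 (standard error 0.12). The other NUDT6 probe set lay below background. Of the 22 probe sets for 12 measured genes, 3 passed, or 13.6%, against 4.17% of all tested probe sets. The 3 belonged to NUDT4 and NUDT6 alone, and the median difference of the list was -0.027.

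Among the listed genes of haem synthesis and breakdown, which did not include ALAS2, no probe set passed in all 20 animals, and 1 did without PiNN animal 62. The 22 probe sets for 13 measured genes had a median difference of -0.025, and 3 had an unadjusted p under 0.05, against 17.3% of all tested probe sets. UROD, a haem synthesis enzyme, differed by -0.38 (unadjusted p = 0.00746, adjusted p = 0.103 from limma), and BLVRA, which reduces biliverdin, by -0.28 (adjusted p = 0.258) at its probe set above background. Myoglobin was not named on the array. The red blood cell markers had higher means in PiNN at all 6 of their probe sets, 4 of 6 listed genes being measured, and ALAS2, the first enzyme of haem synthesis in red cells, passed (-0.51, adjusted p = 0.0327). The summed signal of their brightest probe sets ran from 87.5 to 351 in Duroc and from 163 to 633 in PiNN on the linear scale. The part of red blood cells in the result for NUDT7 was not tested. Adipocyte markers had higher means in Duroc at 19 of 21 probe sets, with 0 passing by limma and 5 at an unadjusted p under 0.05. The summed signal of their brightest probe sets, however, ran from 1213 to 2817 in Duroc and from 1252 to 3977 in PiNN. The part of adipocytes was not tested either. In bulk muscle, fewer cells of a type and less RNA per cell cannot be told apart.

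**Figure D5:**
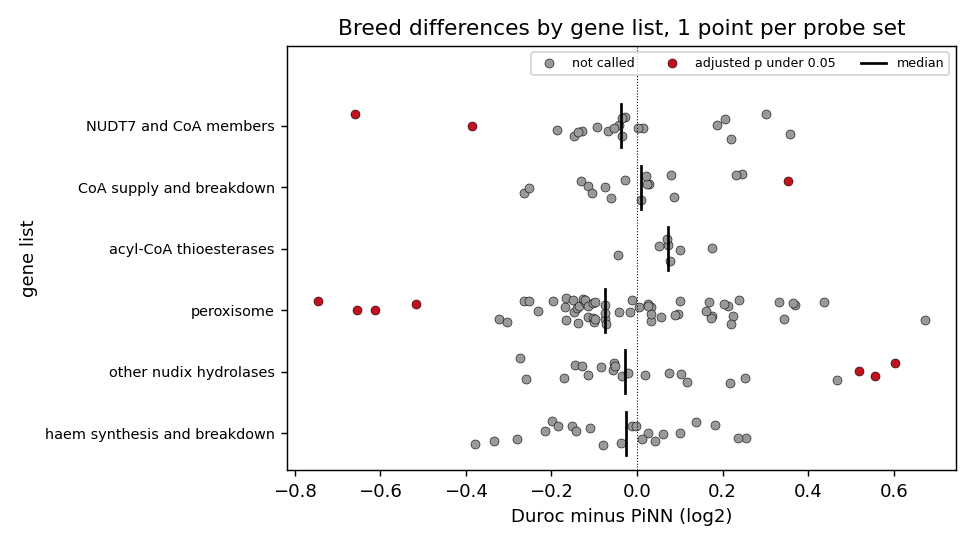
Duroc minus PiNN difference (log2) of each probe set, by gene list, with the median of each list as a vertical bar and probe sets at an adjusted p under 0.05 in red. The passing probe sets of the peroxisomal list (PEX19 and CRAT) lie on the PiNN side with NUDT7, and those of NUDT4 and NUDT6 lie on the Duroc side.

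No gene beside NUDT7 on chromosome 6 passed the test. A long non-coding RNA annotated from 10173155 overlaps the end of the NUDT7 interval, and signals from the overlap cannot be assigned here. Of the 5 annotated genes on each side, 5 had probe sets on the array, namely WWOX, CLEC3A, VAT1L, ADAMTS18 and SYCE1L. Their 8 probe sets differed by -0.29 to 0.098, and none passed by limma, 1 of VAT1L having an unadjusted p of 0.0315 (adjusted p = 0.227). WWOX, CLEC3A and SYCE1L each had a probe set above the background mean, with differences of 0.098, 0.019 and -0.040. VAT1L, the next gene, had a probe set at 4.06 in Duroc and 4.09 in PiNN, slightly above background. That of ADAMTS18 lay below it.

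The genes with the highest and lowest correlations with NUDT7 across animals are listed beside the values of the members. Pearson correlations with the mean of both NUDT7 probe sets were taken over the 20 animals after subtraction of the breed means, for the brightest probe set of 11333 genes above background. The highest belonged to TPX2 (0.90), HEXA (0.86), NDUFA1 (0.85), TSG101 (0.85) and LTA4H (0.84), and the lowest to NEU2 (-0.90), DGAT2 (-0.87) and SLC5A9 (-0.87). Within Duroc alone and within PiNN alone these genes had correlations of the same sign, 0.81 and 0.96 for TPX2 and -0.88 and -0.91 for NEU2. TPX2 itself differed between the breeds the opposite way to NUDT7, by 0.53 (adjusted p = 0.0119 from limma). For the other members the correlations ran from -0.26 (PANK1, rank 8125) to 0.44 (PANK4, rank 2617 of 11333). They lay within the range of -0.74 to 0.75 that held all but the outer 1% on either side. The correlations were not adjusted for array background, and its part in them was not tested. With background in the model the breed difference of the NUDT7 mean was -0.64, against -0.52 without it. The correlations are descriptions, since all points share the 20 arrays and the genes were picked as extremes. The shared sign within each breed follows largely from that choice. Extremes of so many genes will exceed a few members, so the comparison says little about the members.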

How the data were processed

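Longissimus muscle RNA of 10 Duroc and 10 PiNN pigs was measured on Affymetrix Porcine Snowball arrays. The log2 signals were used as the authors deposited them, without further normalization in the main fit. The submitters' processing notes name GCOS 1.1.1. How signals were summarized and normalized is not given in sources used here. Of 47845 probe sets, 45922 porcine ones were tested and 1923 control and other-species ones were not. A single symbol was given for 26058 and none for 19864. Breeds were compared with limma 3.58.1 in R 4.3.3 (functions lmFit and eBayes with a breed term alone, two-sided). Benjamini-Hochberg adjustment covered the 45922 probe sets, and an adjusted p under 0.05 passed. The breed ANOVA of the methods, with Benjamini-Hochberg adjustment, and q-values of the limma p were run as alternatives. The q-values that the study took from its ANOVA were not computed. No array was left out, and the number of arrays limits the precision. Correlations used 100000 permutations. Named were all member probe sets, the passing genes of each list (or else the 2 with the largest differences above background), the annotated neighbours of NUDT7 and the genes most and least correlated with it. The members and lists were chosen with earlier results of these data known, among them the breed difference of NUDT7. The procedures were tested on simulated data.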

Additional observations from a re-analysis of the deposited data

Results flagged for a closer look

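Each breed's 10 animals were tested at each of the 20 member probe sets for a highest or lowest animal far from the rest, as the gap to the nearest animal divided by the whole range. Of 40 such groups 5 exceeded Dixon's 95% critical value for 10 animals, and chance flags about 1 in 20. NUDT7 at SNOWBALL_007907_st had Duroc animal 32 at 5.76 against 6.31 for the next lowest (ratio 0.621). NUDT7 at SNOWBALL_007910_st had PiNN animal 49 at 5.56 against 6.57 (ratio 0.570). PANK4 at SNOWBALL_022445_st had the same animal, 49, at 6.39 against 6.89 (ratio 0.573). NUDT19 at SNOWBALL_008062_st had PiNN animal 62 at 4.73 against 5.15 (ratio 0.476), and PPCS at SNOWBALL_008774_st had that animal at 6.06 against 6.46 (ratio 0.526). Background was highest on the array of animal 49, at 4.21. With array background in the model for all 20 animals, the breed difference was -0.86 for NUDT7 at SNOWBALL_007910_st and -0.24 for PANK4 at SNOWBALL_022445_st. Without it they were -0.66 and -0.19. The part of background in the low signals of animal 49 itself was not tested.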

How the results depend on the processing

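No paired analysis was possible because the breeds share no animal numbers. The NUDT7 differences were negative in every setting run. Both probe sets passed with q-values, with brighter probe sets only, with a variance trend and robust fitting, and with array background as a covariate. They also passed with quantile normalization (adjusted p = 0.0299 and 0.0356 from limma) and with array weights (0.0274 and 0.00815). An ANOVA with breed as the factor, as in the methods, left the NUDT7 differences at -0.39 (Benjamini-Hochberg adjusted p = 0.0515) and -0.66 (0.0790). The study turned its ANOVA p into q-values, a step not repeated here, so these values do not show what its procedure gives. Centring each array on its median gave -0.39 (adjusted p = 0.0543 from limma) and -0.67 (adjusted p = 0.0560). At the threshold of 0.05, 0 member probe sets passed under the ANOVA or the centring. With only the animals that had an RRBS library the NUDT7 differences were -0.19 and -0.011 with 0 passing. The mean of both gave -0.10 there. With only the others SNOWBALL_007907_st was -0.49 (adjusted p = 0.0920 from limma) and SNOWBALL_007910_st, the 1 that passed, -0.96 (adjusted p = 0.0200). With 1 value per gene 1 member gene passed, against 8.02% of all genes. Without single animals the passing member probe sets numbered 0 to 2 (0 in 9 fits, 1 in 7 and 2 in 4), and NUDT7 ran from -0.42 to -0.31, from -0.79 to -0.58 and, for the mean, from -0.60 to -0.45.

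Some member probe sets that did not pass changed sign. They were PANK2 SNOWBALL_041306_st under centring (-0.0060), PANK2 SNOWBALL_047776_st with array weights (0.010), and, with the array background as a covariate, PANK1 SNOWBALL_028840_st (-0.00082), PANK4 SNOWBALL_037615_st (0.0014) and PPCS SNOWBALL_019683_st (0.0028). With PiNN animal 49 also left out, a setting chosen after seeing the data, the latter pair gave 0.020 and 0.0051. With only the RRBS animals PANK1 gave 0.0040 (SNOWBALL_024606_st) and -0.28 (SNOWBALL_028840_st), PANK2 gave 0.15, -0.053 and 0.23, PANK3 SNOWBALL_018759_st -0.12 and PANK4 SNOWBALL_022445_st 0.00028, and with only the others PANK4 SNOWBALL_037615_st gave 0.028. Without single animals PANK1 SNOWBALL_028840_st ran from -0.054 to 0.078, PANK2 from -0.061 to 0.030, -0.022 to 0.039 and -0.091 to 0.012, and PANK4 SNOWBALL_037615_st from -0.082 to 0.020. The causes were not tested. The tests of the breed difference by RRBS library and of the NUDT7 mean under other settings were also chosen after seeing the data. That mean was -0.52 with the ANOVA (adjusted p = 0.0272), -0.53 with centring (0.0244), -0.64 with array background as a covariate (0.000991), -0.72 in the animals without an RRBS library (0.0120) and -0.10 in those with one (0.821). The number of all probe sets that passed was 1917, 3135 with array weights, 389 and 585 in the RRBS subsets, and 1174 without PiNN animal 36.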
